A study of Mus musculus with 6 samples.

Results

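Troponins and tropomyosins are the calcium switch of the muscle thin filament, and 10 of their genes were read in mouse hearts: troponin T (Tnnt2, Tnnt1 and Tnnt3), troponin I (Tnni3, Tnni1 and Tnni2), troponin C (Tnnc1 and Tnnc2) and the tropomyosins Tpm1 and Tpm2. They were chosen by name, and all 10 were found among the 17447 rows of the count table. Total RNA came from hearts of wild type mice in 2 groups. One group of 3 had chronic kidney disease (CKD) after subtotal nephrectomy, in which the poles of the left kidney and, in a later operation, the whole right kidney were removed; the other group of 3 was sham-operated, with anaesthesia and exposure of the kidneys but no tissue taken. The sources used here give no strain, age or sex, and no transgene or drug treatment is named. The tissue label is heart, without naming a chamber. Only the sham columns, with totals of 10480788, 10474487 and 12669724 counts, are used for levels, because the CKD row labels failed the check given next.

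The row labels were checked first. By Spearman's rank correlation over the 17447 rows, the values were 0.984 to 0.987 among the 3 pairs of CKD columns, 0.982 to 0.985 among the 3 sham pairs, and -0.0586 to -0.0528 when a CKD column was set against a sham column (9 pairs). These correlations run across genes, which are not independent replicates. The row labelled Tnnt2, cardiac troponin T, held 17, 24 and 18 counts in the CKD columns, against 99835, 100679 and 112138 counts in the sham columns. Tpm1 held 246, 246 and 236 counts in the CKD columns, against 125572, 118416 and 144594 in the sham columns. The fast skeletal Tnnt3 label went the other way, with 2494, 2350 and 2314 counts in the CKD columns and 5, 3 and 3 in the sham columns. Read by label, cardiac Tnnt2 would hold 0.815% ± 0.171 of troponin T counts in the CKD columns, against 99.834% ± 0.00871 in the sham columns (SD, n = 3 each). Of the 10 labels, 5 stood lower in every CKD column than in any sham column, 3 stood higher and 2 overlapped. The share of all 17447 rows that separate in this way was not counted, so these counts describe nothing particular to the 10 labels. Because the CKD row labels failed this check, no CKD value is read as the level of a gene. No test between the groups was made, and the levels below are those of the 3 sham hearts.

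**Figure D1:**
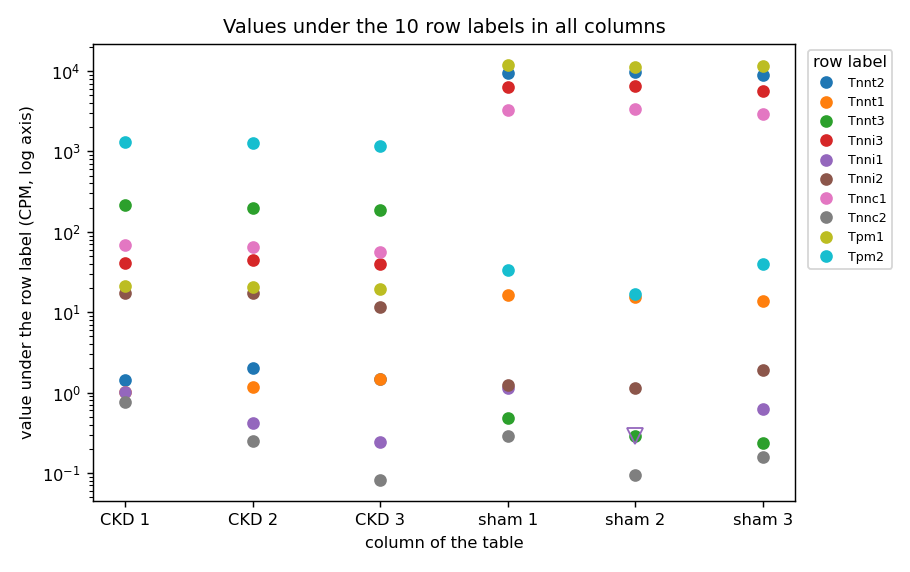
Values under the 10 row labels in the 3 CKD columns (left) and the 3 sham columns (right), in CPM (count over the column total x 1000000) on a log axis; an open triangle marks 0 counts, drawn at the level of 3 counts. The rows labelled Tpm2 and Tnnt3 lead the CKD columns, while Tpm1, Tnnt2, Tnni3 and Tnnc1 lead the sham columns.

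In striated muscle, tropomyosin lies along the actin filament and covers the sites where myosin binds. Troponin T ties the troponin complex to tropomyosin, troponin I holds the filament off, and calcium binding to troponin C releases that hold. Adult heart muscle is known for Tnnt2, Tnni3, Tnnc1 and Tpm1. Tnnt1 and Tnni1 are the slow skeletal genes, and Tnni1 is also the troponin I of the fetal heart; Tnnt3, Tnni2 and Tnnc2 belong to fast skeletal muscle. Tnnc1 serves both heart and slow skeletal muscle, so it cannot be assigned to one of them. Tpm2 encodes beta-tropomyosin, found in skeletal and smooth muscle.

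The troponin T and I genes lie in pairs on the mouse genome. In the RefSeq gene table of GRCm38.p6, the slow Tnnt1 and the cardiac Tnni3 are direct neighbours among protein-coding genes on chromosome 7. On chromosome 1 the slow Tnni1 and the cardiac Tnnt2 are separated by Lad1 alone, and on chromosome 7 the fast Tnni2 and Tnnt3 are separated by Lsp1 alone. To show what stands in front of close neighbours with unlike levels, the 250 bases before the RefSeq start (GRCm38.p6) are given for the 4 most abundant members and for Tnnt1 and Tnni1. Capitals mark CATTCC, the core of the M-CAT element first described in the chicken cardiac troponin T promoter, or TATAAA, the TATA box, on either strand.
Tnnt2, chr1:135836084-135836333 (+): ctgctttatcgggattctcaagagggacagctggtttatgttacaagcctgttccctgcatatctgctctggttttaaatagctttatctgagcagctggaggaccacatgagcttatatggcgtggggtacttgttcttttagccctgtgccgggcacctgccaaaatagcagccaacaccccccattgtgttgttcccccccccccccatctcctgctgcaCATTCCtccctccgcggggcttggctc
Tnni3, chr7:4522529-4522778 (-): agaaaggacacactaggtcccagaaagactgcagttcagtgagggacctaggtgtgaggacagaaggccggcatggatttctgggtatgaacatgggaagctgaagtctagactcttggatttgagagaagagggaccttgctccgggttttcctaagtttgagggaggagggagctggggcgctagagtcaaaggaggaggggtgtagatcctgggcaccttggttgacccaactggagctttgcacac
Tnnc1, chr14:31208062-31208311 (+): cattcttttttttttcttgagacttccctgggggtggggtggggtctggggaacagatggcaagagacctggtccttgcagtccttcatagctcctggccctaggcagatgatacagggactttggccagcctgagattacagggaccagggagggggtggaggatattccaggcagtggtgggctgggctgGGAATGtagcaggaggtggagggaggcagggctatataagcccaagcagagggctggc
Tpm1, chr9:67049214-67049463 (-): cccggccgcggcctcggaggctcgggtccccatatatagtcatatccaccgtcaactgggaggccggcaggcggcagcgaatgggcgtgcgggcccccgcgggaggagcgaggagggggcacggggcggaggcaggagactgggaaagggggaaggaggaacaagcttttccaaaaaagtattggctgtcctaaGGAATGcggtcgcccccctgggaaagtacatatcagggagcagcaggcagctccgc
Tnnt1, chr7:4515976-4516225 (-): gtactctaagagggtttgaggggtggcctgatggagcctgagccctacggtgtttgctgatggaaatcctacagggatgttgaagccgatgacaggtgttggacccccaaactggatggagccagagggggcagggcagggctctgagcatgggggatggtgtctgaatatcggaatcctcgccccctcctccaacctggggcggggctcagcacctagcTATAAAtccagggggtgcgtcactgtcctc
Tnni1, chr1:135799171-135799420 (+): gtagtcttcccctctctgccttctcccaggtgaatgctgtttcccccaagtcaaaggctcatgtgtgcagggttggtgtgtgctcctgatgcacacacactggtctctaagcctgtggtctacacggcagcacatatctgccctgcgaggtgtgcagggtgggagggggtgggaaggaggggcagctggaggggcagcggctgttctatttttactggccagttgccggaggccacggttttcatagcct

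Of the 10 members, 8 had an entry in the promoter table, 10 entries in all because Tnnt2 and Tnni1 had a pair each; the first entry is shown for these. CATTCC was in the first entry of 3 of the 4 abundant members, but not in the second entry of Tnnt2. It ended 21 bases before the start in the first Tnnt2 entry, and its reverse complement stood 52 bases before the start in Tnnc1 and 50 in Tpm1. It was in no entry of the other 4 members with one, nor in that of Tnni3, against 12.6% of all 32851 windows of 250 bases. TATAAA was in 1 entry, that of Tnnt1, 24 bases before the start, against 12.4% of all windows. Only these exact letters were searched, so a near match such as tatataag in the Tnnc1 window was not counted. Among further motifs, CANNTG (the E-box) was in all 10 entries against 66.2% of all windows, and GATA in 8 against 53.6%. No CATTCC or TATAAA match overlapped another motif searched. These are matches of letters in a short window and not binding sites.

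The abundant members were the cardiac set. Tpm1, alpha-tropomyosin, held 125572, 118416 and 144594 counts in sham 1, 2 and 3. It averaged 11570 ± 363 CPM (the count over the column total x 1000000; SD, n = 3) and was the gene of rank 5 among all genes. Tnnt2 averaged 9329 ± 417 CPM and had rank 7. Tnni3, the cardiac troponin I, held 66077, 68563 and 71642 counts, or 6168 ± 461 CPM, at rank 13. Tnnc1, the calcium sensor, held 34546, 35082 and 36770 counts, or 3183 ± 244 CPM, at rank 22. Each of these 4 genes lay in a narrow band, with the highest heart 1.06 to 1.16 times the lowest. Together they made up 99.84% ± 0.0444 of the counts of the 10 members, and the 10 members took 3.12%, 3.08% and 2.89% of all counts in sham 1, 2 and 3 (mean 3.03% ± 0.124).

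**Figure D2:**
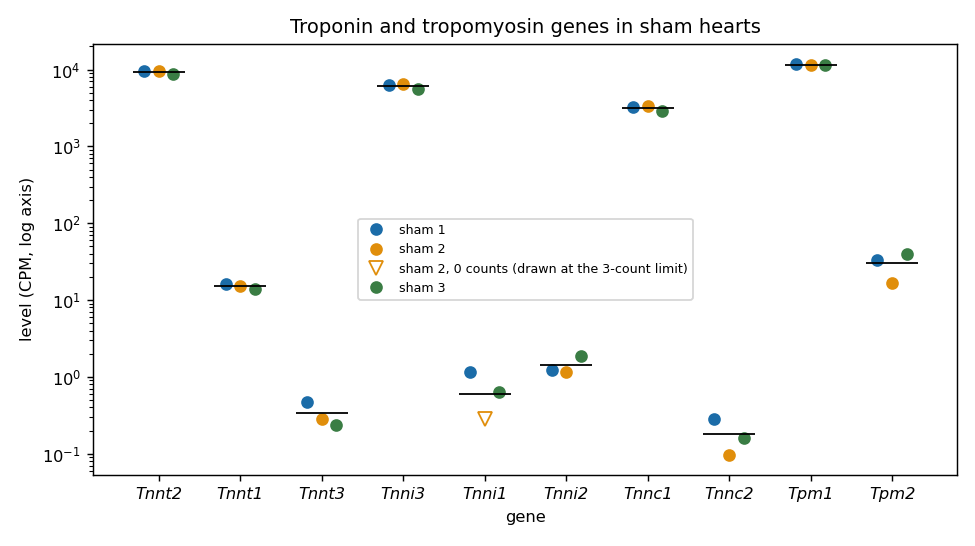
Level of each of the 10 genes in the 3 sham hearts in CPM on a log axis; bars are means of the 3 hearts, and the open triangle marks 0 counts, drawn at the level of 3 counts. Tnnt2, Tnni3, Tnnc1 and Tpm1 lie at 2902 CPM or more in every heart, Tnnt1 and Tpm2 between 14.0 and 39.6 CPM, and Tnnt3, Tnni1, Tnni2 and Tnnc2 at 1.89 CPM or less.

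Troponin T counts were almost wholly cardiac. Tnnt2 took 99.824%, 99.838% and 99.840% of them in sham 1, 2 and 3. Slow Tnnt1 held 171, 160 and 177 counts, or 15.2 ± 1.17 CPM, and took 0.171%, 0.159% and 0.158% of troponin T counts. The 95% exact binomial interval of this share was 0.146% to 0.199% in sham 1 and overlapped those of the other hearts; such intervals cover counting error only. The coefficient of variation (CV) of Tnnt1 between hearts was 7.74%, near the 7.69% that counting error alone gives at its depth. Fast Tnnt3 held 5, 3 and 3 counts, or 0.00355% ± 0.00127 of troponin T counts, and its intervals overlapped in all hearts.

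Troponin I counts had the same make-up, with 99.967% ± 0.0141 from Tnni3. Tnnt1, the slow gene next to Tnni3, was far below it in each heart: Tnni3 had 386, 428 and 405 times its counts in sham 1, 2 and 3, or 458 ± 23.8 times per length of the principal transcript. Slow and fetal Tnni1 held 12, 0 and 8 counts and averaged 0.592 ± 0.574 CPM. The 0 of sham 2 allows up to 3 counts, which is 0.00437% of its 68575 troponin I counts, and its 95% exact interval reaches 0.00538%. That lies below the interval of sham 1 (0.0182%, 0.00938% to 0.0317%) but overlaps that of sham 3 (0.0112%, 0.00482% to 0.0220%). The mean rested on single hearts, at 0.316 CPM without sham 1 and 0.888 CPM without sham 2. Sham 1 was also the highest in 9 of 10 atrial markers, and sham 2 the lowest in 8: the list took 0.314%, 0.0511% and 0.0930% of all counts in sham 1, 2 and 3, with Myl7 at 5207, 15 and 1032 counts. The share of all genes highest in sham 1 or lowest in sham 2 was not counted. The part of this atrial difference in the Tnni1 counts was not tested.

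Fast Tnni2 held 13, 12 and 24 counts, or 1.43 ± 0.408 CPM, and took 0.0197%, 0.0175% and 0.0335% of troponin I counts, with overlapping intervals. Sham 3 held the most, but the CV of 28.6% was close to the 24.7% of counting error. Among 18 skeletal muscle markers, the adult fast myosins Myh1, Myh2 and Myh4 were at 0 counts in every sham heart (at most 3 counts, or 0.286 CPM in sham 2, by counting error). Among those with counts that averaged below 1 CPM, the fast light chain Mylpf held 6, 6 and 15 counts. The parvalbumin gene Pvalb held 0, 0 and 22, and the slow skeletal Mybpc1 1, 3 and 11. The others did not share that rise in sham 3: Actn3 held 6, 3 and 5 counts, Myod1 2, 2 and 1, and Myoz1 2, 2 and 3. Another 9 markers of that list averaged at least 1 CPM, led by the muscle glycogen phosphorylase Pygm at 1810 ± 114 CPM, which heart muscle also expresses. Of these 9, sham 1 had the highest value in 6, sham 2 in 1 and sham 3 in 2. The lowest value was in sham 2 for 5 and in sham 3 for 4. How all genes split between the hearts in this way was not counted. Tnni2 was highest in sham 3 and lowest in sham 2. The list took 0.219%, 0.217% and 0.202% of all counts in sham 1, 2 and 3, and 0.0346%, 0.0261% and 0.0335% without Pygm. Their part in the Tnni2 counts was not tested.

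Troponin C has no slow gene apart from Tnnc1, so only a fast share can be read in this family. Tnnc1 took 99.991%, 99.997% and 99.995% of troponin C counts in sham 1, 2 and 3. Fast Tnnc2 held 3, 1 and 2 counts, or 0.00566% ± 0.00292. Of the Tnnc2 exon bases in GENCODE M21, 74.0% overlap exons of Ube2c on the opposite strand, and the strand setting of the counting is unknown, so these few counts cannot be told apart from reads of Ube2c, which held 18, 7 and 16 counts.

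Summed over troponin T and I, the cardiac genes took 99.887% ± 0.00903 of the counts, the slow genes 0.102% ± 0.00793 and the fast genes 0.0115% ± 0.00296 (SD, n = 3). The cardiac genes had 165912, 169242 and 183780 counts in sham 1, 2 and 3. The slow genes had 183, 160 and 185 and the fast genes 18, 15 and 27. Nearly all slow counts were those of Tnnt1, while most fast counts were those of Tnni2. Slow exceeded fast in every heart for troponin T, but for troponin I the fast gene held more counts than the slow one in every heart, by a single count in sham 1.

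**Figure D3:**
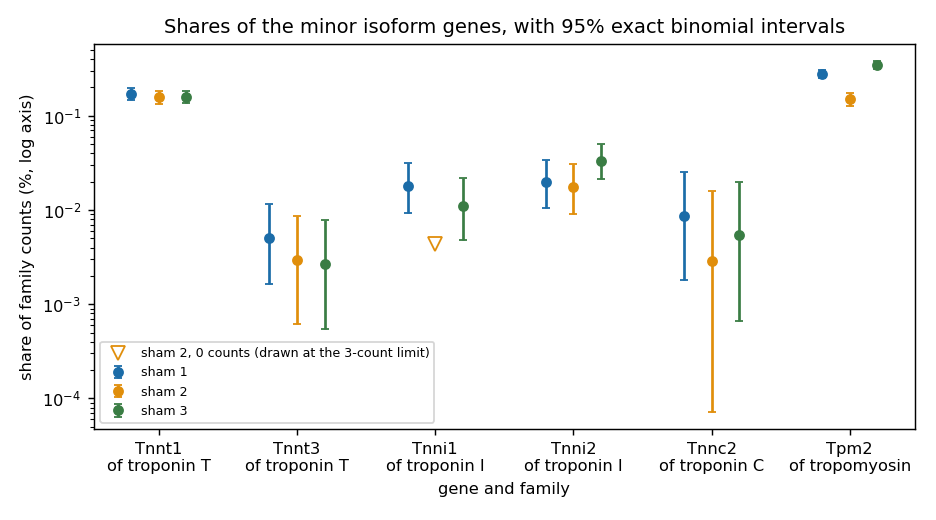
Share of each minor gene in the counts of its family, in percent on a log axis, for the 3 sham hearts with 95% exact binomial intervals (counting error only); the open triangle is the 3-count limit of Tnni1 in sham 2. The intervals of Tnnt1, Tnnt3, Tnni2 and Tnnc2 overlap between hearts, and Tpm2 is lower in sham 2, at 0.149%, than in sham 1 and 3.

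Among the tropomyosins, Tpm2 differed between hearts by more than counting error. Tpm2 held 352, 177 and 502 counts in sham 1, 2 and 3, or 30.0 ± 11.8 CPM, and took 0.280%, 0.149% and 0.346% of Tpm1 and Tpm2 counts. The interval in sham 2, 0.128% to 0.173%, lay below those of sham 1 (0.251% to 0.310%) and sham 3 (0.316% to 0.378%). Its CV was 39.2%, against 5.39% from counting error and a median of 9.32% over the 8864 genes at 10 CPM or more. The tropomyosins outside the 10 members were lowest in sham 2 too: Tpm4 held 1991, 1155 and 2265 counts and Tpm3 held 778, 568 and 1045. Tpm2, Tpm3 and Tpm4 stayed lowest in sham 2 under TMM and DESeq2 scaling as well. With all 4 genes in the denominator, Tpm1 took 97.8% of tropomyosin counts. The counts are per gene and do not separate splice forms of any tropomyosin.

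Several marker lists were lowest in sham 2 with Tpm2. By column totals all 7 fetal heart or hypertrophy genes, several of which heart muscle cells themselves make, were lowest there. They took 0.490%, 0.199% and 0.377% of all counts in sham 1, 2 and 3. Nppb was nearly level, at 102.9 CPM in sham 2 and 103.1 CPM in sham 3, and Nppa is also an atrial marker. The slow myosin Myh7 held 4141, 639 and 2445 counts and the stretch-responsive Ankrd1 18210, 7902 and 18931. The TMM factors were 1.02, 0.955 and 1.03 in sham 1, 2 and 3, which raises sham 2 values against column totals. With these factors Nppb and Xirp2, and among the lists below Tie1 and Pdgfrb, would no longer be lowest in sham 2. The remaining single markers were not checked under TMM or DESeq2 scaling. Again by column totals, all 10 fibroblast markers were lowest in sham 2, with 0.434%, 0.236% and 0.473% of all counts in sham 1, 2 and 3. Of 12 smooth muscle and pericyte markers 9 were lowest there; without desmin (Des), which heart muscle also makes in quantity, that list took 0.134%, 0.123% and 0.164%. The smooth muscle myosin Myh11 held 698, 479 and 1774 counts and calponin Cnn1 52, 3 and 143. Of 8 endothelial markers 7 were lowest in sham 2, at 0.156%, 0.140% and 0.173%. The share of all genes lowest in sham 2 was not counted, so these tallies describe nothing particular to the lists. The part of these lists in the Tpm2 difference was not tested. In tissue RNA fewer cells of a type and less RNA per cell cannot be told apart.

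The nearest genes in pattern were found as those with the smallest distance to a member in log2 of the level over its mean, across 3 hearts. For Tpm2 these were Rcn3 (350, 183 and 496 counts, distance 0.0525), Fzd1 (150, 73 and 219) and Mmp2 (1085, 553 and 1474), and 10 of 8861 genes (0.113%) lay within a distance of 0.1. For Tnni2 they were Cgnl1, Tmem267 and Mrc1, with 28 genes (0.316%) within 0.1. The Tnni2 pattern rests on 13, 12 and 24 counts, with a CV of 28.6% against 24.7% from counting error. Likeness to it therefore says little. The patterns of the steady members were common. Within 0.1 lay 15.4% of genes for Tnnt2, led by Tmem230, 10.9% for Tnnt1, led by Otud6b, 9.64% for Tnni3, led by Cnot4, 9.38% for Tnnc1, led by Uqcrb, and 19.1% for Tpm1, led by Wdr33. With 3 hearts such likeness is a description only.

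**Figure D4:**
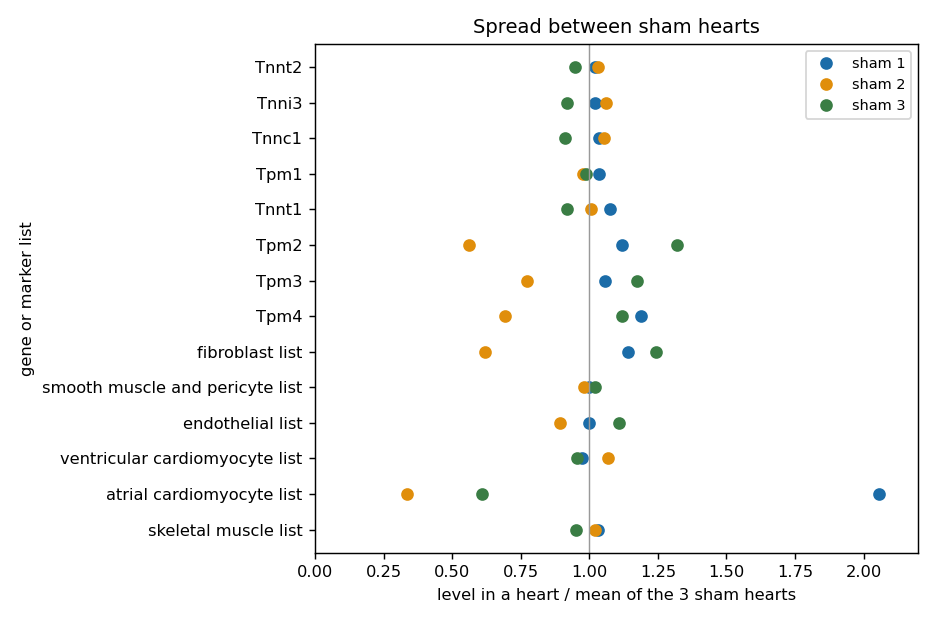
Level in each sham heart divided by the mean of the 3 hearts, for members, the tropomyosins Tpm3 and Tpm4, and marker lists (summed share of all counts). Tpm2, Tpm3, Tpm4 and the fibroblast list are lowest in sham 2, while the abundant members stay close to 1; the smooth muscle and pericyte list is shown with Des, which holds most of its counts.

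The 3 abundant troponin genes varied together. Tnnt2, Tnni3 and Tnnc1 were each highest in sham 2 and lowest in sham 3, by column totals and also with TMM or DESeq2 scaling. Their CVs were 4.47%, 7.47% and 7.67%, against counting errors of 0.310% to 0.531% and a median CV of 6.62% over the 104 genes at 1000 CPM or more. With TMM scaling the spread was wider, with CVs of 7.76%, 10.9% and 10.8%, and with DESeq2 size factors 8.14%, 11.3% and 11.1%. The ratio of Tnni3 to Tnnc1 counts was nearly fixed, at 1.91, 1.95 and 1.95 in sham 1, 2 and 3, a CV of 1.16% against 0.654% from counting error. Tnnt2 to Tnni3 stood at 1.51, 1.47 and 1.56, a CV of 3.20%. Tpm1 did not follow the same order by column totals, being lowest in sham 2 (11310 CPM) and highest in sham 1 (11980 CPM), but with TMM or DESeq2 scaling it too was highest in sham 2 and lowest in sham 3. Its CV of 3.14% was the smallest of the 10 members. Of the 10 ventricular markers 9 were highest in sham 2, with 9.60%, 10.5% and 9.41% of all counts in sham 1, 2 and 3. The share of all genes highest in sham 2 was not counted. The part of these markers in the troponin levels was not tested.

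Levels of different genes can be set side by side only per length. Per kilobase of the principal transcript in GENCODE M21, Tnnt2 was at 7775 ± 347 CPM per kb, Tnni3 at 6763 ± 505, Tpm1 at 6094 ± 191 and Tnnc1 at 4414 ± 339. The ranges of Tnni3 and Tpm1 overlapped, and those of the other neighbours in this order did not. Tnnt1 followed 298-fold below Tnnc1, at 14.8 ± 1.14 CPM per kb, and its range overlapped that of Tpm2 at 14.3 ± 5.61. Tnni2 (1.86 ± 0.531) lay above Tnni1 (0.515 ± 0.499) without overlap, and Tnni1, Tnnt3 (0.331 ± 0.126) and Tnnc2 (0.257 ± 0.139) overlapped each with the next. Within a heart the 3 cardiac troponins were within a factor of 1.83 of each other: Tnnt2 to Tnnc1 was 1.74, 1.72 and 1.83, and Tnni3 to Tnnc1 was 1.51, 1.54 and 1.54 per length. The order of the abundant genes depended on the length used. Per coding kilobase Tpm1 led at 13580 CPM per kb, and with all annotated exons merged Tnnc1 led at 3057 and Tnnt2 came last of the 4 at 1203. The gap between these 4 and the other 6 members held with each length.

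**Figure D5:**
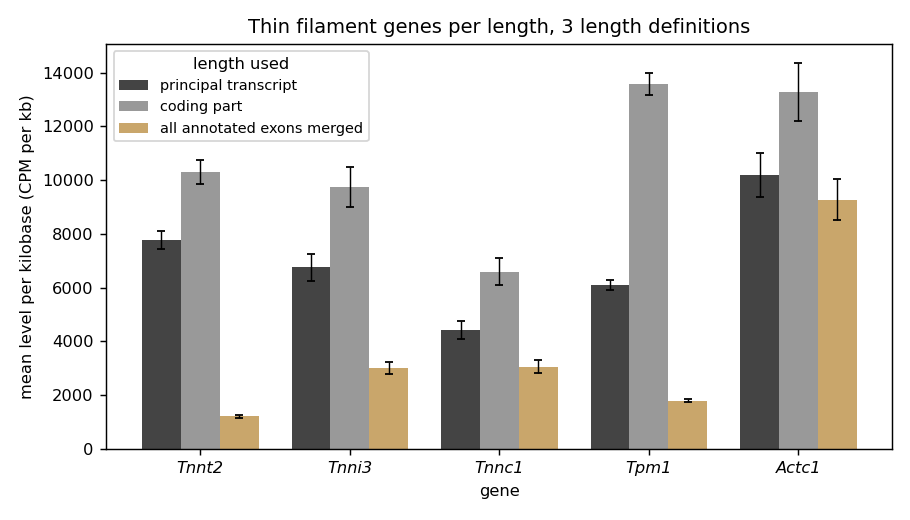
Mean level per kilobase (CPM per kb; error bars are the SD of 3 sham hearts) of the 4 abundant members and the cardiac actin Actc1, with 3 definitions of gene length. Per principal transcript Tnnt2 stands at 7775 and Tnnc1 at 4414, and the order of the genes changes with the length used.

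Among the thin filament partners of these genes the cardiac actin was by far the highest in CPM. Actc1, which encodes it, was at 15010 ± 1225 CPM, and per principal transcript it was 1.67 ± 0.151 times Tpm1. The skeletal actin Acta1 varied more, with 6442, 3068 and 10469 counts, or 578 ± 269 CPM, and the smooth muscle actin Acta2 was at 155 ± 48.2 CPM. Lmod2 (leiomodin of the heart) averaged 691 ± 114 CPM, the filament capping Tmod1 536 ± 56.5 and the nebulette gene Nebl 379 ± 18.2, while nebulin (Neb), the long ruler of skeletal thin filaments, was at 10.7 ± 2.61 CPM. Lmod3 and Tmod4, which the skeletal muscle list also holds, stood at 131 ± 4.54 and 29.6 ± 2.87 CPM. All 9 genes of this list averaged at least 1 CPM. Of the 9 thick filament genes, Myh6 led at 38130 ± 3906 CPM, and the slow skeletal Mybpc1 held 1, 3 and 11 counts. Among kinases, the catalytic subunit of protein kinase A, Prkaca, which phosphorylates cardiac troponin I, stood at 328 ± 18.0 CPM, protein kinase C delta (Prkcd) at 18.9 ± 4.29 and the troponin I interacting kinase Tnni3k at 167 ± 15.3. Genes beside the troponins on the chromosome ranged widely. Nisch, beside Tnnc1, held 2631, 2713 and 3535 counts (263 ± 14.4 CPM). Lad1, between Tnni1 and Tnnt2, held 78, 49 and 54 counts, Dnaaf3, beside Tnni3, held 60, 125 and 156, and Lsp1, between Tnni2 and Tnnt3, held 472, 332 and 606. Exons of Dnaaf3 overlap 4.17% of the exon bases of Tnni3 on the same strand, and no other member beside Tnnc2 and Tnni3 shares exon bases with another annotated gene.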

How the data were processed

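Raw counts per gene symbol were deposited by the authors in 1 table, whose 6 column names equal the sample titles. The submitters' processing notes name mouse build mm9 and the tools HISAT2, HTSeq, Trimmomatic and DESeq; their versions, the strand setting and the annotation are unknown here. CPM is count / column total x 1000000, and 0 columns were left unused beyond the 6 named. Shares are counts of a gene over its family, with 95% exact binomial intervals (scipy 1.17.1). Reads shared between isoform genes may be split or dropped, depending on the counting.

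Lengths came from GENCODE M21 and promoters from RefSeq, both GRCm38, so no coordinates of the mm9 counts are given. TMM (edgeR 4.0.16) and DESeq2 1.42.0 size factors were alternatives, in R 4.3.3. Of these scalings, only TMM was checked on simulated data. All 10 members, fixed partner genes and the 3 nearest patterns of each member with at least 10 counts per heart were named, from genes at 10 CPM or more. Members and lists were chosen with earlier results of these data known. Single genes of the marker lists, the removal of Des and Pygm from 2 lists and the merged exon length were chosen after values were seen. The labels do not say that replicates are separate animals, and whether the 6 samples were processed as 1 batch is not known here. The brown fat list was also read.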

Additional observations from a re-analysis of the deposited data

Results flagged for a closer look

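Under 3 of the 10 row labels, the CKD columns, which no level uses, held more than any sham heart. The share of all rows for which this holds was not counted. The row labelled Tpm2 averaged 1248 ± 68.9 CPM in the CKD columns, against 30.0 ± 11.8 CPM in sham hearts (SD, n = 3 each). The row labelled Tnnt3 averaged 199 ± 12.1 CPM in the CKD columns, against 0.333 ± 0.127 CPM in sham hearts, and that labelled Tnni2 15.3 ± 3.32 CPM against 1.43 ± 0.408. Because the row labels of the CKD columns do not match their values, these are not read as levels of Tpm2, Tnnt3 or Tnni2, and no difference was tested.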

How the results depend on the processing

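No paired analysis was possible because no result comes from a test between CKD and sham: the CKD row labels could not be relied on. Of 234 alternatives over 36 values, 215 moved the value by less than 1 SD between hearts; the 111 settings without 1 heart are among them, which for a mean of 3 hearts is so by construction and says nothing about stability. Per principal transcript length the Tnnt2 and Tnnt1 shares of troponin T were 99.81% and 0.190%, and the fast share of troponin T and I 0.0152%; per coding length they were 99.81%, 0.188% and 0.0154%. Per merged exon length, an alternative added after the data were seen, the shares were 99.41% for Tnnt2, 0.569% for Tnnt1, 0.0173% for Tnnt3, 0.0325% for Tnni2, 99.43% for Tpm1 and 0.574% for Tpm2, and over troponin T and I 99.80% cardiac, 0.168% slow and 0.0280% fast. With troponin C added and Tnnc1, which slow muscle shares, counted as cardiac, the cardiac share was 99.91% and the slow share 0.0844%. With Tpm3 and Tpm4 added Tpm1 took 97.8%. With rows of at least 10 counts only, the mean correlation of CKD with sham columns was -0.121, against -0.0555 over all rows, and Tnnc2, with fewer counts, gave no value. The lengths enter these shares by construction. TMM and DESeq2 scaling moved none of the 22 values they could change by 1 SD, and the median of all genes by under 0.1 on the log2 scale. These values are means over the 3 hearts, and both scalings keep the same average depth, so a small move is largely built in. The values of single hearts did shift, as the wider CVs of the abundant troponin genes show. Depth limits Tnnt3, Tnni1 and Tnnc2, where counts of 0 to 12 gave overlapping 95% exact intervals between hearts, except for Tnni1 between sham 1 and sham 2.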

Other observations

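Among the brown fat markers, a list not described above, Ucp1 and Elovl3 were at 0 counts in each heart. Cidea, a lipid droplet gene, held 228, 316 and 380 counts in sham 1, 2 and 3. The fat cell genes Adipoq (30, 2 and 27 counts) and Plin1 (28, 4 and 28 counts) were lowest in sham 2, as Tpm2 was.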
